A study of Mus musculus with 10 samples.

Results

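The genes described here are 50 genes of the cell cycle and of DNA replication, chosen by name from the 55487 genes of a count table of sorted spinal cord cells. They were split by role into 22 replication genes of S phase, 22 mitotic genes of G2/M and 6 regulators of G1. The table came from male C57BL/6 mice of the genotype Arg1tm1Lky, an allele that reports Arg1 expression through a yellow fluorescent protein (YFP), at the peak of experimental autoimmune encephalomyelitis (EAE), an induced autoimmune disease that inflames and demyelinates the spinal cord. From each of 5 animals (m2, m6, m234, m235 and m236), 200000 YFP+ cells (ARG1+) and 100000 YFP- cells (ARG1-) were sorted by FACS as CD45+ CX3CR1+ cells without Ly6G and CD3, and each sort gave 1 RNA-seq library. The comparison asks how ARG1+ cells differ from the ARG1- cells around them, and both groups share genotype, sex, strain and disease. The gate does not separate monocyte-derived cells from microglia or from macrophages of the CNS borders, and the age of the animals is not used here.

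A cell that divides passes through G1, copies its DNA in S phase, and separates the copies in mitosis after G2. In G1, D-type cyclins switch on the kinases CDK4 and CDK6, which inactivate the retinoblastoma protein and free E2F factors to transcribe the genes of replication. Later, complexes that read a CHR element, often together with CCAAT boxes, drive the genes of mitosis. Inhibitors such as p21 (Cdkn1a), p27 (Cdkn1b) and p18 (Cdkn2c) hold the kinases back. Most macrophages in tissue are at rest, whereas some monocyte progenitors, microglia and local macrophages divide in inflamed tissue.

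The promoters of the members differed by role in the letters they hold, and examples of replication and mitotic genes are shown to make this visible. The sequences are those of RefSeq on GRCm38.p6, given 5′ to 3′ on the strand of the gene for the 170 bases before the start site. Mcm5 (chr8:75109339-75109508, plus strand) and Mcm6 (chr1:128359706-128359875, minus strand) encode subunits of the replicative helicase. Capitals mark E2F-type motifs (TTTCCCGC, TTTGGCGC, TTTCGCGC or TTTGCCGC) and CCAAT on either strand, and the long run of capitals near the beginning of each is a pair of E2F-type matches on opposite strands that overlap.
Mcm5: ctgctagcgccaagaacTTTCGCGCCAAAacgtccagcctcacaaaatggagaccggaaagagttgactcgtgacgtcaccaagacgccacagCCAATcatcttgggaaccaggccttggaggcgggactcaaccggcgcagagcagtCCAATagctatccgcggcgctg
Mcm6: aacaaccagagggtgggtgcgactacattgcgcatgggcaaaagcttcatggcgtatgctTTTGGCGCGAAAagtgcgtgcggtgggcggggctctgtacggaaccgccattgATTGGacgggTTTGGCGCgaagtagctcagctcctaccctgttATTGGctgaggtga
Ccnb2 (chr9:70421555-70421724, minus strand) encodes cyclin B2 and Cdc20 (chr4:118437344-118437513, minus strand) encodes the activator of the ubiquitin ligase that ends metaphase. Here capitals mark the CHR-type motif TTTGAA and CCAAT, again on either strand.
Ccnb2: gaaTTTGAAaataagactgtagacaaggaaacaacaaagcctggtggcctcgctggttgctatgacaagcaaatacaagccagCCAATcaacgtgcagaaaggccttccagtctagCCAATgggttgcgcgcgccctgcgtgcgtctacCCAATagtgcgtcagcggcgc
Cdc20: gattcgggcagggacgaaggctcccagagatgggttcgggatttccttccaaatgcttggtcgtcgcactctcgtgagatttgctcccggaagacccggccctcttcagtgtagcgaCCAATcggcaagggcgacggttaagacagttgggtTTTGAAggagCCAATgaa
Windows of 300 bases (250 before and 50 after the start) were found for 41 of the 50 members, in 50 windows. An E2F-type motif was in 33.3% of 24 replication windows, 5.26% of 19 mitotic windows and 0% of 7 G1 windows, against 2.26% of all 32851 promoter windows. TTTGAA was in 12.5% of replication, 73.7% of mitotic and 0% of G1 windows, against 17.9% of all. CCAAT was in 50% of replication, 89.5% of mitotic and 42.9% of G1 windows, against 37.4% of all, and TTTGAA together with CCAAT was in 73.7% of the mitotic windows, against 6.95% of all. These matches describe the letters in the windows and are not evidence of binding.

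The sort separated the libraries by Arg1, with 814 ± 174 CPM in ARG1+ against 18.4 ± 4.96 CPM in ARG1- libraries. CPM are counts after scaling every library to one size, given here with the SD (n = 5). The 2-sided exact permutation p was 0.00794, the smallest that 5 against 5 libraries allow when pairs are not kept. The cells were sorted on the Arg1 reporter, so this is a check of the sort alone. Totals were 28870482 to 33826355 counts in ARG1+ and 8396863 to 35455643 counts in ARG1- libraries. The ARG1- library of m234 was the shallow one, with 8.50 counts for each CPM, and the next ARG1- library held 28212174 counts. All 8 markers that define macrophages and monocytes were well above the filter, with Lyz2 the most abundant. A member was tested where it had more than 1 CPM in at least 3 libraries. This held for 49 of the 50 members among 13740 genes tested, and the mitotic cyclin gene Ccnb1 was below it, with 12 to 59 counts per library.

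The members that passed the test were lower in ARG1+ cells. With edgeR's quasi-likelihood test at a false discovery rate (FDR, the Benjamini-Hochberg adjusted p over all genes tested) below 0.05, 6 of the 49 members were lower, which is 12.2%, against 6.15% of all genes tested. They were the 3 D-type cyclin genes Ccnd1, Ccnd2 and Ccnd3, the replication licensing gene Cdt1, and the mitotic genes Ccnb2 and Cdc20. No member was higher in this test, against 6.82% of all genes. At an unadjusted p below 0.05, 2 members were higher, against 2062 of the 13740 genes tested. DESeq2 called 2 members higher and limma-trend 0, against 914 of the 13740 genes for limma-trend. The share of all genes that DESeq2 called is not given, so its counts, here and below, are not read as results about the members. Past the further limit of 1 log2 unit, which the study's methods name, only Ccnd1 was lower and no member was higher in this test, against 0.888% and 0.56% of all genes. The median log2 fold change (ARG1+ over ARG1-) was −0.03 over 22 replication genes, −0.63 over 21 mitotic genes and −0.33 over 6 G1 genes, against −0.00 over all genes tested.

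**Figure D1:**
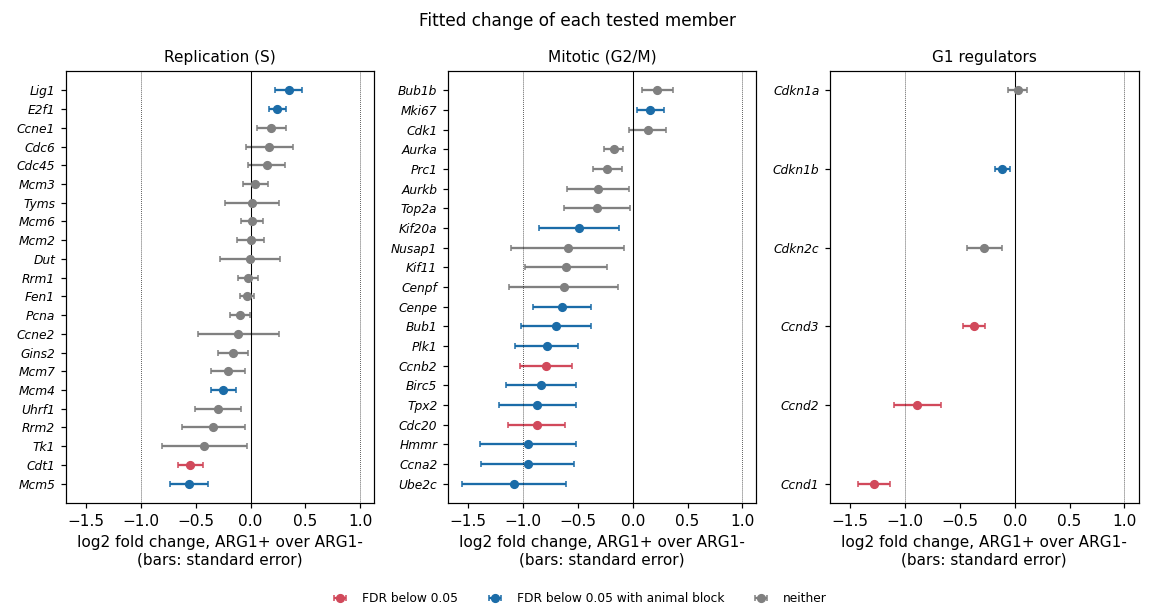
Log2 fold change of the 49 tested members (ARG1+ over ARG1-, x axis) with its standard error as bars, in panels by role and sorted by size; red marks FDR below 0.05, blue marks members that passed with the animal as a block alone, and dotted lines stand at 1 log2 unit. Replication genes lie on both sides of 0, from −0.56 for Mcm5 to 0.35 for Lig1, while 18 of 21 mitotic genes lie below 0.

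The 2 libraries of an animal varied together, so a fit with the animal as a block was run beside the test without it. With this block, 18 of the 49 members were lower and 3 were higher, against 18.3% and 16.8% of all genes. By role, 3 of 22 replication genes (13.6%), 11 of 21 mitotic genes (52.4%) and 4 of 6 G1 genes were lower. The replication genes were thus near the share of all genes in both fits, and the mitotic genes were above it with the block. In sorted bulk RNA, fewer cycling cells and less of these RNAs per cell cannot be told apart.

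G1 regulators carried the largest change. Ccnd1, which encodes cyclin D1, an activator of CDK4 and CDK6, had 20.05, 18.8, 17.7, 18.3 and 23.5 CPM in the ARG1+ libraries of m2, m6, m234, m235 and m236. The ARG1- libraries of the same animals, in the same order, had 57.4, 39.6, 63.1, 43.9 and 37.5 CPM. Every ARG1- library was above every ARG1+ library, and the ARG1+ values lay close together while those of ARG1- cells were highest in m234 and m2. Genes whose groups stood apart in this way made up 5.2% of all genes tested. The log2 fold change of Ccnd1 was −1.29 ± 0.14 (SE, FDR = 0.00035 by edgeR), and within the animals the difference of log2 CPM was −1.51, −1.07, −1.83, −1.26 and −0.67. The call was kept whichever of the 10 libraries was left out. The gene (Ensembl ENSMUSG00000070348, chr7:144929931-144939925 on GRCm38) shares 21.9% of its exon bases with LTO1 on the opposite strand, and use of the strand in counting was not given in the sources used here.

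Ccnd2, which encodes cyclin D2, had 21.2, 17.0, 25.9, 25.5 and 13.4 CPM in ARG1+ against 42.3, 32.0, 47.0, 46.8 and 24.0 CPM in ARG1- libraries, animals in the same order. The groups overlapped, since ARG1- cells of m236 had less than ARG1+ cells of m234 and m235, but each ARG1+ library was below the ARG1- library of its own animal, by a difference of log2 CPM of −0.99, −0.91, −0.86, −0.87 and −0.84. Its fitted log2 fold change was −0.89 ± 0.21 (SE), with an edgeR FDR of 0.0195 and of 1.56e-06 with the animal block. Ccnd3, which encodes cyclin D3, had 21.9, 27.0, 23.5, 29.7 and 25.4 CPM in ARG1+ against 27.9, 33.8, 31.4, 39.2 and 32.7 CPM in ARG1- libraries. Its groups overlapped too, with the ARG1+ library of m235 above the ARG1- library of m2, and within animals the differences of log2 CPM were −0.35, −0.32, −0.42, −0.40 and −0.37. The log2 fold change of Ccnd3 was −0.37 ± 0.10 (SE, edgeR FDR = 0.0317, 0.000161 with the block). Without the block, the call of Ccnd2 was lost without the ARG1+ library of m6 and without both libraries of m2 or of m6 (edgeR FDR up to 0.0929). The call of Ccnd3 was weaker (edgeR FDR up to 0.107). It was kept only where the part left out was the ARG1+ library of m235, the ARG1- library of m2 or m234, or both libraries of m235. Only Ccnd1 was called of the 3 when the ARG1+ library of m6 was left out. With the block, all 3 were lower whichever animal was left out (FDR at most 0.00176). For Ccnd3, 14.8% of exon bases overlap Bysl on the opposite strand.

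Per kilobase of exon, which allows the 3 genes to be compared, the summed level of the D-type cyclins was 18.7 ± 1.26 CPM per kb (SD, n = 5) in ARG1+ and 32.1 ± 4.01 CPM per kb in ARG1- cells. Ccnd3 made up 51.2% to 59.4% of this sum in the ARG1+ libraries and 34.5% to 49.6% in the ARG1- libraries. Ccnd1 made up 23.5% to 33.7% and 33.8% to 46.4%, and Ccnd2 10.7% to 21.2% and 13.2% to 20.1%. The ranges of Ccnd1 and Ccnd3 met no value of the other group, while those of Ccnd2 overlapped.

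None of the 3 inhibitors was called without the block, by edgeR, DESeq2 or limma-trend, and 0 were at an unadjusted p below 0.05. Cdkn1a, which encodes p21, an inhibitor that p53 induces, was the most abundant member per length, at 245 CPM per kb in ARG1+ and 241 CPM per kb in ARG1- cells. Its ARG1+ libraries had 642, 633, 713, 777 and 569 CPM and its ARG1- libraries 631, 649, 609, 756 and 629 CPM, so that the groups overlapped fully and the animals went either way. Its log2 fold change of 0.03 ± 0.09 (SE, edgeR FDR = 0.88) did not pass. Cdkn1b, which encodes p27, had 79.7 ± 6.92 CPM in ARG1+ against 86.2 ± 5.78 CPM in ARG1- cells (SD, n = 5), a log2 fold change of −0.11 ± 0.07 (SE) with an edgeR FDR of 0.292, or 0.0285 with the block, and lower values in ARG1+ cells in 5 of 5 animals. The blocked call of Cdkn1b was lost without m2, m6 or m235 (edgeR FDR up to 0.115). Cdkn2c, which encodes p18, the least abundant of the 6, had 4.16 ± 0.657 CPM in ARG1+ against 5.11 ± 1.08 CPM in ARG1- cells, and its log2 fold change of −0.28 ± 0.16 (SE) did not pass in either fit (edgeR FDR = 0.273 and 0.0745).

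**Figure D2:**
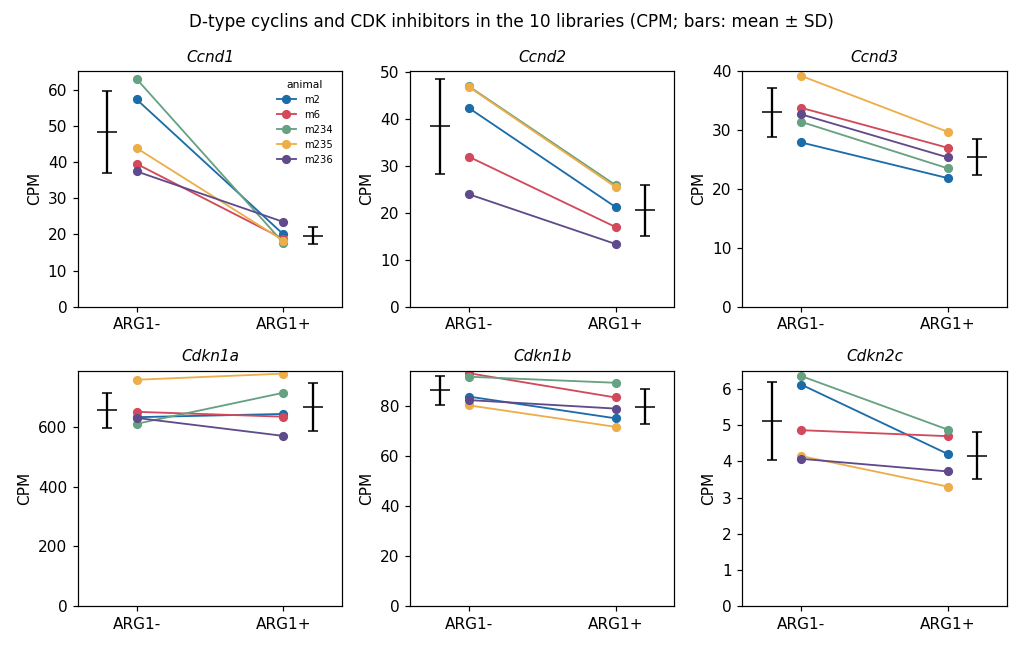
CPM of the 6 G1 regulators in the 10 libraries, with lines joining the ARG1- and ARG1+ library of an animal (colours) and black bars for mean ± SD of 5 libraries. The lines of Ccnd1, Ccnd2 and Ccnd3 go down in 5 of 5 animals, and those of Cdkn1a go either way.

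Replication genes showed no common direction, with 13 of 22 fitted lower and 9 higher in ARG1+ cells. Cdt1 was the only one that edgeR called without the block (4.55% of the replication genes, against 6.15% of all genes), while DESeq2 called 2 lower (Cdt1 and Mcm5) and 2 higher. Its product loads the helicase onto origins and is destroyed once S phase begins. It had 15.1, 23.7, 20.4, 22.7 and 22.4 CPM in the ARG1+ libraries and 27.3, 34.0, 28.6, 32.0 and 30.5 CPM in the ARG1- libraries, animals in the order above. The groups did not overlap, and the lowest value of each group was that of m2. Of the 49 tested members, 2 (Ccnd1 and Cdt1) were lower with groups apart in this way, against 5.2% of all genes. Cdt1 had a log2 fold change of −0.55 ± 0.11 (SE, edgeR FDR = 0.00945, 0.000156 with the block), and it was called whichever library or animal was left out (FDR at most 0.0387).

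The 6 genes Mcm2 to Mcm7 encode the subunits of a single helicase ring, which opens the DNA ahead of the polymerases. Their levels ran from 2.97 to 12.1 CPM per kb in ARG1+ and from 3.58 to 11.7 CPM per kb in ARG1- cells, with Mcm3 at the top in both. Mcm5 was just above the FDR limit by edgeR without the block and was called lower by DESeq2 (FDR = 0.0146), with 13.4, 8.94, 10.1, 9.34 and 9.6 CPM in ARG1+ against 22.1, 12.4, 15.1, 13.7 and 12.4 CPM in ARG1- libraries. The library of m2 was the highest in both groups, and ARG1+ cells were lower in 5 of 5 animals although the groups overlapped. The log2 fold change of Mcm5 was −0.56 ± 0.17 (SE, edgeR FDR = 0.0507). It became −0.37 without the ARG1- library of m2 and −0.49 without both libraries of m2. Mcm5 passed with the block (FDR = 0.00033), as did Mcm4 at −0.25 ± 0.11 (SE, FDR = 0.169 without and 0.0212 with the block). Mcm2, Mcm3 and Mcm6 had log2 fold changes of 0.00, 0.04 and 0.01, and Mcm7 of −0.20 ± 0.16 (SE, FDR = 0.41), with 33.7% of its stretches of 50 bases shared with other genes.

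Lig1, which encodes the DNA ligase that joins the fragments of the lagging strand, had the highest log2 fold change among the members. Its ARG1+ libraries had 30.9, 27.4, 36.4, 28.0 and 24.5 CPM and its ARG1- libraries 28.9, 23.0, 22.8, 21.5 and 19.4 CPM, and ARG1+ cells were above their own ARG1- cells in 5 of 5 animals while the groups overlapped. For Lig1 the log2 fold change was 0.35 ± 0.12 (SE), with an edgeR FDR of 0.0792 without and 0.00597 with the block. E2f1, which encodes an E2F factor that activates these genes, had 28.5, 31.6, 26.8, 26.9 and 24.9 CPM in ARG1+ against 24.5, 25.0, 20.6, 23.0 and 23.5 CPM in ARG1- libraries. The groups overlapped only through the ARG1+ library of m236, which was below the ARG1- library of m6, and the log2 fold change was 0.24 ± 0.08 (SE, edgeR FDR = 0.0547 without and 0.00714 with the block). DESeq2 called both Lig1 and E2f1 higher. Ccne1, which encodes the cyclin E1 of the passage into S phase, was also higher in 5 of 5 animals, at 0.19 ± 0.13 (SE), and passed neither fit (edgeR FDR = 0.37 and 0.13). Over all genes, 20% were higher and 21% lower in all 5 animals, against 3 and 4 of the 22 replication genes.

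Pcna, the sliding clamp of the replication polymerases and a common marker of proliferation, was the most abundant replication gene per length (97.0 CPM per kb in ARG1+ and 104 CPM per kb in ARG1- cells). It had 126, 155, 168, 156 and 131 CPM in ARG1+ against 149, 155, 179, 160.4 and 144 CPM in ARG1- libraries, which overlapped, and its log2 fold change was −0.10 ± 0.09 (SE, edgeR FDR = 0.49, 0.0767 with the block). It gave 28.3% to 39.1% of the summed CPM of the replication genes in the 10 libraries, and 31.8% of its stretches of 50 bases are shared with the pseudogene Pcna-ps2. The least abundant replication gene per length was Ccne2, which encodes cyclin E2, at 0.239 CPM per kb over all libraries and a log2 fold change of −0.11 ± 0.37 (SE). The other replication genes, Rrm1, Rrm2 and Tyms of nucleotide supply, Dut and Tk1 of thymidine nucleotide metabolism, Gins2, Cdc6 and Cdc45 of the origin and helicase, Fen1 of fragment processing and Uhrf1 of methylation upkeep, had log2 fold changes between −0.42 for Tk1 and 0.17 for Cdc6. None of them passed in either fit. Fen1 and Gins2 share 84.1% and 70.7% of their exon bases with genes on the opposite strand.

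**Figure D3:**
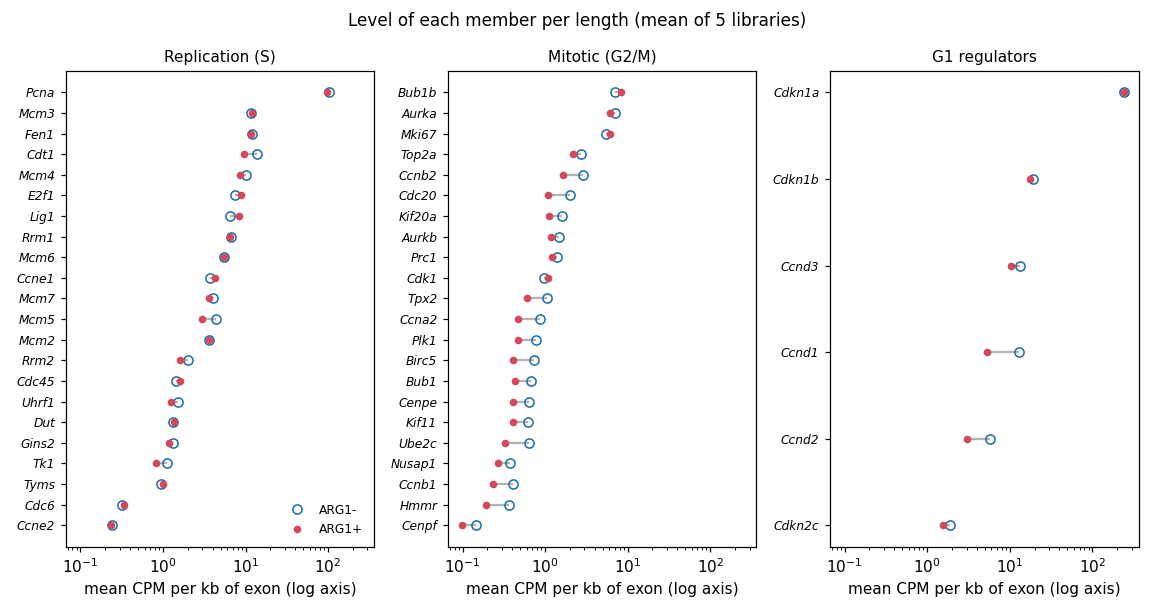
Mean CPM per kb of exon (log axis) of the 50 members in 5 ARG1- (open circles) and 5 ARG1+ (filled circles) libraries, sorted by level within each role. Cdkn1a and Pcna stand far above the other members, and most mitotic genes lie below 2 CPM per kb with the ARG1+ circle to the left.

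Mitotic genes mostly lay below 0, with 18 of 21 fitted lower in ARG1+ cells. Ccnb2, whose product activates CDK1 at the entry into mitosis, had 2.68, 2.82, 3.07, 1.94 and 2.12 CPM in the ARG1+ libraries and 6.34, 3.83, 5.88, 2.72 and 3.5 CPM in the ARG1- libraries. Its groups overlapped through the ARG1- library of m235, yet each ARG1+ library was below its own ARG1- library. Ccnb2 had a log2 fold change of −0.79 ± 0.24 (SE, edgeR FDR = 0.046, 0.00295 with the block). Cdc20 had 1.81, 2.33, 1.78, 1.46 and 2.48 CPM in ARG1+ against 5.81, 3.31, 4.12, 2.83 and 2.14 CPM in ARG1- libraries, with m2 far above the other ARG1- values and m236 the only animal in which ARG1+ cells had more. Its log2 fold change was −0.87 ± 0.26 (SE, edgeR FDR = 0.0458, 0.0256 with the block), and 11.6% of its stretches of 50 bases occur in other genes.

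Both calls were close to the limit. Limma-trend called 0 mitotic genes lower, against 841 of the 13740 genes tested, and DESeq2 called 2. By edgeR, 10 of 21 were lower at an unadjusted p below 0.05, against 2055 of the 13740 genes. Without the block and with both libraries of 1 animal left out, 0 or 1 mitotic genes were called, and leaving out a single library gave 0 calls for 3 of the ARG1+ libraries (m6, m235, m236) and for 3 of the ARG1- libraries (m2, m6, m234). The 11 that passed with the block were Ccna2, Ccnb2, Ube2c, Birc5, Plk1, Bub1, Cenpe, Kif20a, Tpx2, Cdc20 and Hmmr. With the block and without m2, 4 of 21 mitotic genes were lower, against 11.8% of all genes, and without m6, m234, m235 or m236 it was 9, 13, 7 or 12. The background then was 13.5%, 20.8%, 13.3% and 15.5% of all genes.

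Ube2c, the ubiquitin-conjugating enzyme that works with CDC20, had the lowest mitotic log2 fold change (−1.08 ± 0.47, SE, edgeR FDR = 0.146 without and 0.0048 with the block). Its ARG1+ libraries had 1.53, 1.2, 0.485, 0.394 and 0.588 CPM and its ARG1- libraries 3.41, 1.92, 0.589, 0.787 and 1.67 CPM, lower in ARG1+ cells of 5 of 5 animals with groups that overlapped. Tpx2, which helps build the spindle and activates Aurora A, had 3.89, 2.59, 1.55, 1.67 and 3.4 CPM in ARG1+ against 9.18, 4.17, 2.35, 3.33 and 4.17 CPM in ARG1- libraries. The ARG1- library of m2 was far above all others, ARG1+ cells were again lower in 5 of 5 animals, and the log2 fold change was −0.87 ± 0.35 (SE, edgeR FDR = 0.121 without and 0.00345 with the block). Cenpe, a motor protein of the kinetochore, had 3.26 ± 1.23 CPM in ARG1+ against 5.09 ± 1.65 CPM in ARG1- cells, with a log2 fold change of −0.64 ± 0.26 (SE, block FDR = 0.00322). Without the ARG1- library of m2, and with no block, the log2 fold changes moved to −0.67 for Ube2c, −0.46 for Tpx2 and −0.41 for Cenpe. With both libraries of m2 left out, Ube2c was at −0.99 and Tpx2 at −0.64. Cenpe stayed between −0.69 and −0.56 whichever animal was left out.

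The remaining mitotic genes that were lower with the block alone had log2 fold changes between −0.96 and −0.49 in the fit without it. These values are listed here beside the FDR of the fit with the block. The block itself gave −0.84 for Ccna2, −0.77 for Birc5, −0.74 for Plk1, −0.65 for Bub1, −0.51 for Kif20a and −0.81 for Hmmr. Ccna2 (cyclin A2) had a log2 fold change of −0.96 and a block FDR of 0.00922, and Birc5 (survivin, of the chromosome passenger complex) of −0.83 and 0.0147. Plk1, a kinase that steers mitosis, had −0.78 and 0.0282, and Bub1, a kinase of the spindle checkpoint, −0.70 and 0.0169. Kif20a, a kinesin of cytokinesis, had −0.49 and 0.0247, with 31.8% of its exon bases under Cdc23 on the opposite strand, and Hmmr, a spindle protein, −0.95 and 0.0377. Without the ARG1- library of m2, and with no block, the log2 fold changes were −0.50 for Ccna2, −0.52 for Birc5 and −0.50 for Plk1. Bub1 was then at −0.37 and Hmmr at −0.40. Kif20a was at −0.29 without the ARG1+ library of m235. With both libraries of m2 left out, the values were −0.76 for Ccna2, −0.51 for Plk1, −0.56 for Bub1 and −0.38 for Kif20a. Birc5 stayed at −0.67 or lower whichever animal was left out. Of the 21 tested mitotic genes, 8 were lower in all 5 animals (38.1%, against 21% of all genes), among them Prc1, which bundles the central spindle, at −0.23 (edgeR FDR = 0.252).

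**Figure D4:**
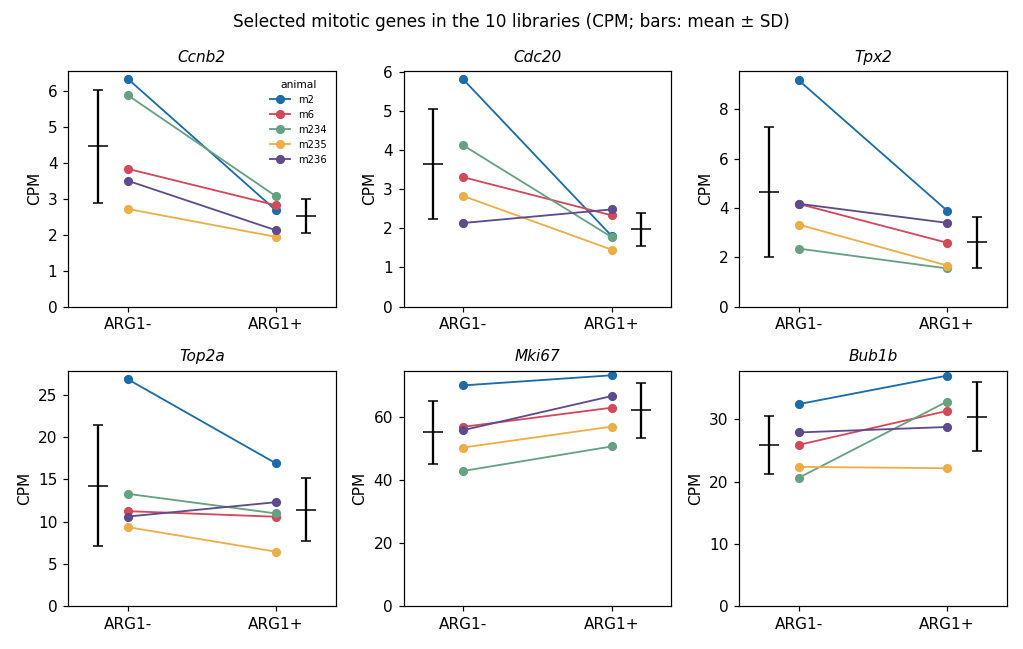
CPM of 6 mitotic genes in the 10 libraries, with lines joining the libraries of an animal (colours) and black bars for mean ± SD of 5 libraries. Ccnb2 and Tpx2 go down in 5 of 5 animals, Cdc20 in 4 of 5, and Mki67 goes up in 5 of 5, with the ARG1- library of m2 at the top of each panel's ARG1- values.

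Mki67 and Bub1b, the mitotic genes with the highest mean CPM, did not share this direction. Mki67, whose product Ki-67 coats mitotic chromosomes and is the usual marker of dividing cells, had 73.3, 63.0, 50.7, 57.0 and 66.7 CPM in ARG1+ against 70.1, 57.0, 43.0, 50.4 and 55.9 CPM in ARG1- libraries. Every ARG1+ library was above its own ARG1- library although the groups overlapped, and the log2 fold change was 0.16 ± 0.12 (SE, edgeR FDR = 0.413, 0.00803 with the block). It was the only mitotic gene that was higher with the block. Bub1b, which encodes the checkpoint protein BUBR1 and was the most abundant mitotic gene per length (8.29 CPM per kb in ARG1+ and 7.04 CPM per kb in ARG1- cells), had 37.0, 31.3, 32.8, 22.1 and 28.7 CPM in ARG1+ against 32.4, 25.9, 20.6, 22.4 and 27.9 CPM in ARG1- libraries. Its log2 fold change, the highest of the mitotic genes, was 0.22 ± 0.14 (SE, edgeR FDR = 0.317 and 0.0714 with the block), and only m235 had slightly less in ARG1+ cells.

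Split at a mean of 10 CPM, a limit chosen after the values were seen, 16 of 17 mitotic genes below it were fitted lower (median log2 fold change −0.70), the exception being Cdk1 at 0.14 ± 0.17 (SE, edgeR FDR = 0.629). The 4 above it were Mki67, Top2a, Aurka and Bub1b, with a median of −0.01. Of these, 2 were fitted lower (Top2a and Aurka), and none was lower with the block. Top2a, the topoisomerase that untangles sister chromosomes, had 11.4 ± 3.75 CPM in ARG1+ against 14.3 ± 7.17 CPM in ARG1- cells (SD, n = 5), a spread set by the ARG1- library of m2 at 26.9 CPM, and a log2 fold change of −0.33 ± 0.30 (SE, edgeR FDR = 0.505). Aurka, the kinase of the centrosome, had a log2 fold change of −0.17 ± 0.09 (SE, FDR = 0.208). Mki67 and Bub1b together gave 58.5% to 64.6% of the summed CPM of the mitotic genes in ARG1+ and 43.9% to 54.2% in ARG1- libraries. The sum therefore differed less than its members did, by a log2 ratio of −0.34, −0.01, 0.01, −0.13 and 0.05 within m2, m6, m234, m235 and m236.

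Counts were small for the rest. Cenpf, a large kinetochore protein and the least abundant tested mitotic gene per length (0.121 CPM per kb), had a log2 fold change of −0.63 ± 0.50 (SE, edgeR FDR = 0.422). In the shallow ARG1- library of m234, 7 of 21 mitotic genes had fewer than 15 counts, and Nusap1, a spindle protein, had 1 count there against 30 to 126 in the other ARG1- libraries. Nusap1, Kif11 (the motor that separates the spindle poles) and Aurkb (Aurora B) had log2 fold changes of −0.59, −0.61 and −0.32 and passed in neither fit.

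The animals differed in the size of the mitotic change. The median difference of log2 CPM over the 21 mitotic genes was −0.98 in m2, −0.39 in m6, −0.25 in m234, −0.65 in m235 and −0.08 in m236. The number of mitotic genes lower in ARG1+ cells was 19, 17, 14, 20 and 12 in the same order. For the 22 replication genes the medians were −0.20, 0.04, 0.12, −0.04 and −0.09, with 15, 10, 8, 12 and 16 genes lower. The 6 G1 genes had medians of −0.44, −0.24, −0.40, −0.36 and −0.26, with 5 or 6 lower in each animal. The medians of all genes tested were between −0.01 and 0.00 in the 5 animals.

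**Figure D5:**
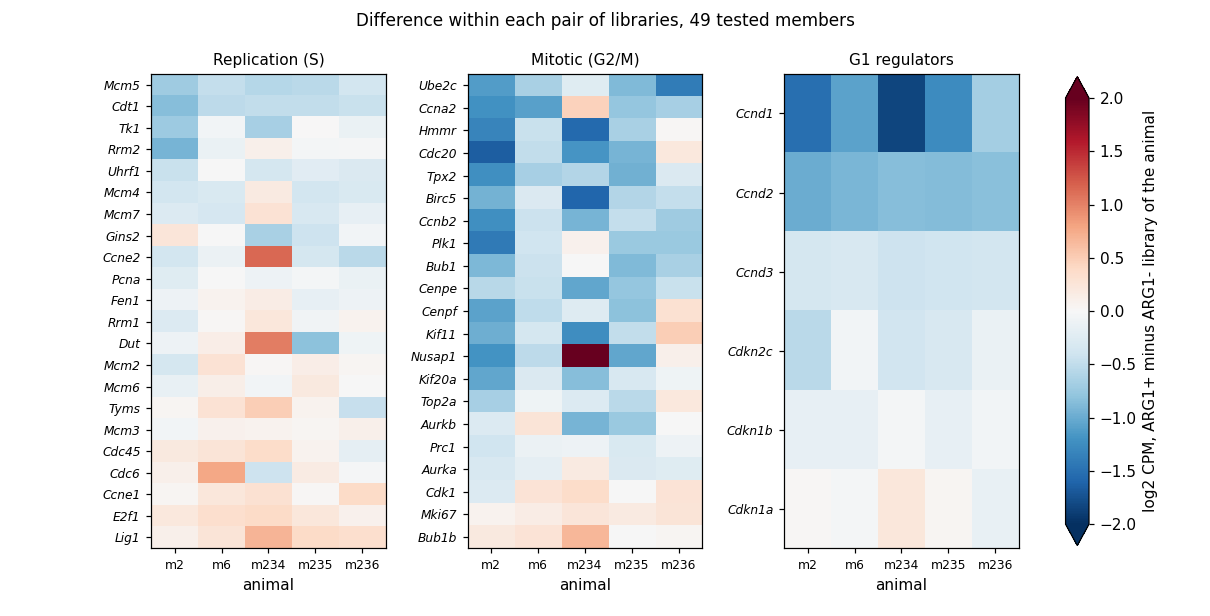
Difference of log2 CPM between the ARG1+ and the ARG1- library of each animal (columns) for the 49 tested members (rows, sorted by fitted change), in panels by role; blue is lower and red is higher in ARG1+ cells, and colours end at 2 log2 units. The rows of Ccnd1, Ccnd2 and Ccnd3 are blue in 5 of 5 animals, and the mitotic panel is bluest in m2 and m235.

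Animal m2 had the highest values of most mitotic genes in both sorts, and of most replication genes in ARG1- cells. Among the ARG1+ libraries, the summed CPM of the replication genes was highest in m234 (469 CPM, against 443 CPM in m2). The ARG1- library of m2 was the highest of the 5 for 19 of 21 mitotic genes (90.5%) and 15 of 22 replication genes (68.2%), against 15.6% of all genes tested. Its ARG1+ library was the highest of its group for 14 of 21 mitotic (66.7%) and 11 of 22 replication genes (50%), against 17.9% of all genes. For the 6 G1 regulators this was so for 0 genes in either group, and Ccnd1 was highest in ARG1- cells of m234.

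Other genes of the pathways were counted in lists written from general knowledge. Of 57 tested further replication genes, 4 were higher (Dnmt1, Rfc1, Orc2 and Orc5) and 1 was lower (Donson), by edgeR, which is 7.02% and 1.75%, against 6.82% and 6.15% of all genes. Dnmt1, the maintenance DNA methyltransferase and the most abundant, had a log2 fold change of 0.33 ± 0.06 (SE, FDR = 0.0056), and Orc5, a subunit of the origin recognition complex, the largest among those called at 0.38 ± 0.09 (SE, FDR = 0.0146). The median of this list was −0.01. Of 48 tested further mitotic genes, 4 were lower (Cenpa, Kif23, Kif4 and Ska3) and 1 was higher (Cdc25b), or 8.33% and 2.08%, with 10 lower and 4 higher with the block, or 20.8% and 8.33%, against 18.3% and 16.8% of all genes. The median of this list was −0.30. Kif4, a chromosome kinesin, had −1.15 ± 0.34 (SE, FDR = 0.0453), and Ckap5, a microtubule polymerase and the most abundant, 0.15 ± 0.07 (SE, FDR = 0.158).

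Of 16 tested G1 kinases and activators, which include the 3 D-type cyclins, 6 (37.5%) were lower by edgeR and 0 higher. Over all genes the shares were 6.15% and 6.82%. Beside the cyclins, the genes called lower by edgeR were Myc, E2f2 and Mycl. At an unadjusted p below 0.05, 1 was higher, against 2062 of the 13740 genes tested. Limma-trend called 6 lower and 0 higher, against 841 and 914 of the 13740 genes tested. DESeq2 also called 6 lower and 0 higher, for which no share of all genes is given here. Mycl, a transcription factor of the MYC family, had the largest change of this list at −1.50 ± 0.27 (SE, FDR = 0.00482), with 0.602 ± 0.262 CPM in ARG1+ against 1.75 ± 0.278 CPM in ARG1- cells. Cdk4, the kinase partner of the D-type cyclins and the most abundant of the list, had 68.5 ± 5.14 CPM in ARG1+ against 61.5 ± 4.96 CPM in ARG1- cells and a log2 fold change of 0.16 ± 0.07 (SE, FDR = 0.148). With the block, Cdk4 was higher (FDR = 0.0268), the only gene of the list that was.

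Of 21 tested brakes of the cycle, which include the members Cdkn1a, Cdkn1b and Cdkn2c, 1 was higher (Rbl2) and 1 lower by edgeR. This is 4.76% each way, against 6.82% and 6.15% of all genes. The lower one was E2f8, an E2F repressor, at −0.47 ± 0.14 (SE, FDR = 0.0484). The most abundant, the antiproliferative gene Btg1, had −0.08 ± 0.05 (SE, FDR = 0.357). With the block, 4 brakes were higher (19%) and 3 lower (14.3%), against 16.8% and 18.3% of all genes. Limma-trend called 0 higher and 1 lower. Of 22 tested targets of p53, 5 were higher (Plk2, Ccng1, Trp53inp1, Polk and Rrm2b) and 1 was lower, which is 22.7% and 4.55%, against 6.82% and 6.15% of all genes. Cdkn1a was the most abundant of them, and Bbc3, which encodes the cell death protein PUMA, had the largest called change at −0.60 ± 0.11 (SE, FDR = 0.00633). With the block, 11 of these targets were higher and 6 lower, against 16.8% and 18.3% of all genes. The genes given here by name other than the most abundant and the largest change were named because their counts were small, after their values were seen.

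Markers of other cells moved with the groups, and their counts stand beside 6.15% of all genes lower and 6.82% higher by edgeR, or 18.3% and 16.8% with the block. Of the 8 markers that define macrophages and monocytes, 4 were higher and 0 lower by edgeR without the block. With it, 5 were higher and 3 lower. Of 11 tested dendritic cell markers, 8 were lower in ARG1+ cells and 1, Cd24a, was higher, and Cd24a, the most abundant, carried the summed level of 364 to 427 CPM in ARG1+ and 316 to 357 CPM in ARG1- libraries. Flt3, a receptor of dendritic cells and of their precursors, had 0.289 ± 0.141 CPM in ARG1+ against 3.63 ± 1.47 CPM in ARG1- cells, and Kit, a receptor of progenitors, 3.51 ± 0.899 CPM in ARG1+ against 11.8 ± 2.62 CPM in ARG1- cells, and both were chosen after their values were seen. Of 4 tested markers of myeloid progenitors, 2 were lower, and their sum, led by Cd34, was 12.4 to 21.4 CPM in ARG1+ and 25.3 to 84.0 CPM in ARG1- libraries, lower in 5 of 5 animals. The progenitor granule genes of the list other than Prtn3 were below the filter.

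Of 8 microglia markers, led by Sparc, 0 were called by edgeR without the block or by limma-trend, and 1 was lower by DESeq2. At an unadjusted p below 0.05, 5 were lower, against 2055 of the 13740 genes tested. With the block, 7 were lower, against 18.3% of all genes. Their sum was 158 to 349 CPM in ARG1+ and 217 to 1481 CPM in ARG1- libraries, lower in 5 of 5 animals and highest in m234. Of 8 listed border macrophage markers, 4 were tested, led by F13a1, and 3 were higher (Mrc1, Pf4 and Ms4a7). Lyve1, Cd163, Cbr2 and Folr2 were below the filter. Of 3 tested B and plasma cell markers, led by Ighm, 2 were lower, with sums of 4.97 to 13.3 CPM and 19.6 to 52.6 CPM. Il7r was higher among 2 tested T cell markers, S100a9 was lower among 3 neutrophil markers led by Mmp8, of which 2 were higher with the block and whose sum was higher in ARG1+ cells (131 to 322 CPM against 65.8 to 186 CPM) in 5 of 5 animals, 2 of 4 endothelial markers led by Flt1 were lower, 0 of 5 oligodendrocyte markers led by Mbp were called by edgeR or limma-trend (1 lower and 1 higher by DESeq2, with the block, and at an unadjusted p below 0.05), and no natural killer cell marker passed the filter. No list had a marker at 0 in all 10 libraries. The part of these other cells in the lower cyclin and mitotic levels was not tested.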

How the data were processed

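Total RNA was sequenced from 10 libraries, 5 of ARG1+ and 5 of ARG1- cells of the same 5 animals. The values deposited by the authors are whole-number read counts per Ensembl gene without normalization. Per the labels and methods, the authors made stranded libraries, read 50 bases from 1 end, and aligned them to GRCm38 with STAR 2.7.10b (version from the submitters' processing notes), with counting by summarizeOverlaps in Union mode on the annotation of Ensembl release 100. All 10 columns were used.

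Tests covered genes that exceeded 1 CPM in 3 or more libraries, by edgeR 4.0.16 (R 4.3.3, glmQLFit and glmQLFTest, TMM library sizes, no block), with Benjamini-Hochberg adjustment over 13740 genes. SE is the log2 fold change divided by the square root of F. Log2 fold changes and SE are those of the fit without the block where not said otherwise. Alternatives were DESeq2 1.42.0, limma-trend 3.58.1 with a prior count of 2, RLE, upper-quartile and unscaled library sizes, other filters, a replicate block for the animal, and leaving out each library, or both libraries of each animal. Since the titles give the animal, the libraries are paired. Residuals from the group means correlated at 0.361 to 0.664 across genes within an animal and at most 0.0675 between animals (genes are not independent replicates), so blocked values are given beside the results. Counts of libraries of a group differed beyond sampling noise. Differences within animals are of log2 CPM with a prior count of 2. Levels per kb use GENCODE exon lengths of the same build. Overlap and shared 50-base stretches come from the same annotation, and promoter windows from RefSeq (GRCm38.p6). The tests were tried on simulated counts.

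The members and lists were chosen with earlier results of these data known. Every member was accounted for. Members called in either edgeR fit, the extremes of level and change in each role, Mki67, Pcna and the G1 genes were named, with the most abundant gene and the largest called change of each further list and the most abundant marker of each cell type. A list of inflammatory monocyte markers is not reported here.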

Additional observations from a re-analysis of the deposited data

Results flagged for a closer look

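In groups of 5 libraries, the highest or lowest value of 15 of 100 groups (50 members in ARG1+ and in ARG1- cells) lay farther from its nearest neighbour than Dixon's critical value for 5 samples allows, while chance flags about 1 in 20 groups. The members share the same libraries, so the groups are not independent and the 15 flags are not separate events. Of these, 9 were the ARG1- library of m2. Its values were 22.1 CPM for Mcm5, 33.2 CPM for Rrm1, 8.71 CPM for Rrm2, 8.77 CPM for Uhrf1 and 1.45 CPM for Ccne2 among the replication genes. Among the mitotic genes they were 26.9 CPM for Top2a, 3.79 CPM for Cenpf, 9.18 CPM for Tpx2 and 3.06 CPM for Hmmr. All 9 were the highest of the group.

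The ARG1+ library of m2 stood above the other ARG1+ libraries for Mcm5 (13.4 CPM), Mcm7 (13.7 CPM) and Uhrf1 (6.43 CPM). In the shallow ARG1- library of m234, Gins2 (6.24 CPM) and Cdc6 (2.35 CPM) stood above the rest. Cdkn1a stood above the rest in the ARG1- library of m235 (756 CPM). What sets these libraries apart was not tested.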

How the results depend on the processing

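Of 392 refits of single members under another tool, library size, filter or the replicate block, 360 kept the direction and the side of the FDR limit, 20 passed it newly (15 of them with the block), 3 lost it (Ccnb2 with limma-trend and upper-quartile sizes, Cdc20 with limma-trend) and 9 changed sign. The values after a change of sign were near 0, with total counts for Mcm2 (−0.040), Mcm6 (−0.033), Tyms (−0.030) and Cdkn1a (−0.015), for Dut with DESeq2 (0.010), limma-trend (0.033), upper-quartile library sizes (0.0061) and no filter (0.0024), and for Nusap1 with limma-trend (0.027, from −0.59). Replication genes called lower (1) were 2 with DESeq2, total counts or no filter and 3 with the block, and those called higher (0) were 2 with DESeq2 or the block. Mitotic genes called lower (2) were 0 with limma-trend, 1 with upper-quartile sizes and 11 with the block, which also called 1 higher. The block called 18.3% of all genes lower and 16.8% higher. Counts of the other settings stand here without a share of all genes and are not read as results about the members. The mean log2 ratio of the summed CPM within animals was −0.08 for mitotic and −0.09 for G1 genes, and as a mean of log2 CPM −0.44 and −0.49.

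With a library or an animal left out and no block, the calls ranged from 1 to 2 for replication genes lower, 0 to 1 for replication genes higher, 0 to 2 for mitotic genes lower, 1 to 3 for G1 genes lower, and 1 to 3 for members lower past 1 log2 unit. Fits with the block and without m2, m6, m234, m235 or m236 were added after the data were seen. They called 2, 2, 4, 2 and 2 replication genes lower and 2 higher each time, 4, 9, 13, 7 and 12 mitotic genes lower and 1 higher each time, 3 or 4 G1 genes lower, and 1, 2, 2, 1 and 3 members lower past 1 log2 unit. The share of all genes called lower in the same fits moved as well and is given above beside the mitotic genes. Counts without such a share, with or without the block, are not read as results about the members. Without the block, the sign changed in some of the fits with a library or an animal left out for 13 members, whose log2 fold changes ranged over −0.074 to 0.13 for Mcm2, −0.030 to 0.15 for Mcm3, −0.049 to 0.11 for Mcm6, −0.071 to 0.079 for Rrm1, −0.47 to 0.085 for Rrm2, −0.17 to 0.20 for Tyms, −0.010 to 0.31 for Cdc6, −0.073 to 0.0024 for Fen1, −0.17 to 0.20 for Dut, −0.21 to 0.052 for Ccne2, −0.51 to 0.056 for Top2a, −0.83 to 0.092 for Nusap1 and −0.035 to 0.088 for Cdkn1a (−0.030 with the block and without m234). Rrm2, Top2a and Nusap1, at −0.34, −0.33 and −0.59 with all libraries, were above 0 without the ARG1- library of m2. With both libraries of m2 left out, they stayed below 0, at −0.02, −0.13 and −0.11. The cause of these differences was not tested.

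The counts of low mitotic genes limit what can be seen, above all in the ARG1- library of m234. The p-values of the fits without the block treat all libraries as independent, although the libraries of an animal varied together. Those with the block treat the animals as independent samples of 1 experiment.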
